A study of Mus musculus with 6 samples.

Results

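The opioid system of the hippocampus was examined through its 7 genes, the precursor genes *Penk*, *Pdyn*, and *Pnoc* and the receptor genes *Oprm1*, *Oprk1*, *Oprd1*, and *Oprl1*. They were taken by gene symbol from the table of expression values, which listed all 7 of them among 14477 genes. RNA-Seq had been made from the hippocampi of 3 mice homozygous for the Phf21bΔ4 allele (Phf21bΔ4/Δ4, replicates 2, 3, and 6) and of 3 Phf21b+/+ mice (WT, replicates 5, 7, and 8). All 6 were untreated animals at baseline, with 1 library for each mouse. The Δ4 allele is a CRISPR/Cas9 deletion in exon 4 of *Phf21b*, which encodes a PHD finger protein that reads histone marks. The line carries the deletion in every tissue. The study kept its mice on a C57BL/6J background and used young adult littermates of both sexes, while the age and sex of these 6 animals are not given in the labels.

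Opioid peptides are cut from large precursor proteins that are stored in dense-core vesicles and released when a neuron is strongly active. *Penk* encodes the precursor of the enkephalins, *Pdyn* that of the dynorphins and neoendorphins, and *Pnoc* that of nociceptin. The receptors couple to inhibitory G proteins, which lower cyclic AMP, open inwardly rectifying potassium channels, and close presynaptic calcium channels. *Oprm1* encodes the μ receptor, *Oprd1* the δ receptor, *Oprk1* the κ receptor, and *Oprl1* the nociceptin receptor. In the hippocampus, dynorphin is known from the granule cells of the dentate gyrus and their mossy fibers, enkephalin from the perforant path and from granule cells and interneurons, and μ and δ receptors largely from GABAergic interneurons.

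The 3 precursor genes share a short coding unit that the choice of genes did not use. It encodes the start of the peptide, Tyr-Gly-Gly-Phe in the opioid peptides and Phe-Gly-Gly-Phe in nociceptin. An in-frame search of the annotated coding sequences (GENCODE M21, GRCm38) found 7 such units in *Penk*, 3 in *Pdyn*, and 1 in *Pnoc*. Of the 7 in *Penk*, 6 were followed by a Met codon (Met-enkephalin) and 1 by a Leu codon (Leu-enkephalin), and all 3 in *Pdyn* were followed by a Leu codon. The sequences below show the unit from each gene on its coding strand, 5′ to 3′, with the codons of the 4 shared residues in capitals and the fifth codon in lower case.
Penk, first Met-enkephalin (chr4:4134334-4134348, minus strand): TACGGAGGCTTCatg
Penk, Leu-enkephalin (chr4:4133941-4133955, minus strand): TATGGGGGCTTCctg
Pdyn, first unit, α-neoendorphin (chr2:129688238-129688252, minus strand): TATGGCGGCTTTttg
Pdyn, second unit, dynorphin A (chr2:129688130-129688144, minus strand): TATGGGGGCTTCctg
Pdyn, last unit, dynorphin B (chr2:129688073-129688087, minus strand): TATGGTGGTTTCctg
Pnoc, nociceptin (chr14:65404878-65404892, minus strand): TTTGGGGGCTTCacc
The Leu-enkephalin unit of *Penk* and the dynorphin A unit of *Pdyn* were identical over all 15 bases. Each of these units lay within 1 exon, exon 2 of 2 in *Penk*, exon 4 of 4 in *Pdyn*, and exon 3 of 4 in *Pnoc*. These repeats are shorter than a read, and no stretch of 75 bases, the read length, was shared between the annotated transcripts of any 2 of the 7 genes.

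On GRCm38, *Penk* (ENSMUSG00000045573.9) lies on chromosome 4 from 4133531 to 4138819, *Pdyn* (ENSMUSG00000027400.11) on chromosome 2 from 129686565 to 129699844, and *Pnoc* (ENSMUSG00000045731.6) on chromosome 14 from 65400673 to 65425472, all on the minus strand. *Oprm1* (ENSMUSG00000000766.18) lies on chromosome 10 from 6758506 to 7038198, *Oprk1* (ENSMUSG00000025905.13) on chromosome 1 from 5588466 to 5606131, and *Oprl1* (ENSMUSG00000027584.16) on chromosome 2 from 181715016 to 181720985, all on the plus strand. *Oprd1* (ENSMUSG00000050511.1) lies on chromosome 4 from 132110726 to 132144486 on the minus strand. Whether reads were counted by strand is not stated, so reads cannot be assigned where exons on opposite strands overlap. This touched 233 exon bases of *Penk* (14.3%), shared with the unlisted gene *A830012C17Rik*, and 96 exon bases of *Oprm1* (1.19%), shared with *Ipcef1*.

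The listed genes received 20495605 to 24881257 reads in each mouse. CPM stands for reads scaled to a library of 1000000 after normalization, and 3 reads corresponded to between 0.127 and 0.143 CPM. Each of the 7 genes had at least 14 reads in every mouse. *Phf21b* itself was measured at 2.15, 3.57, and 3.87 CPM in Phf21bΔ4/Δ4 replicates 2, 3, and 6 and at 6.5, 5.23, and 6.47 CPM in Phf21b+/+ replicates 5, 7, and 8, so the genotypes did not overlap, but its log2 fold change of -0.96 missed the thresholds used below (FDR 0.14, limma). Each of the 8 markers listed for the hippocampus was present in every mouse, but the parts of the hippocampus were not equally represented. The summed level of 7 CA1 pyramidal neuron markers was 996 to 1100 CPM in Phf21bΔ4/Δ4 mice and 409 to 455 CPM in Phf21b+/+ mice. Of these, 3 were higher past the thresholds below, where 0.553% of all genes were. The sums of 8 CA2 and CA3 markers overlapped, at 205 to 467 CPM and 396 to 413 CPM. The dentate markers are described below. *Xist* was present in all 6 mice, and none of the 4 Y-linked genes looked for was listed. The libraries also differed in RNA of other regions and cells. The summed level of 9 thalamus markers was 180 to 260 CPM in Phf21bΔ4/Δ4 mice and 347 to 648 CPM in Phf21b+/+ mice. Of the 9, 1 was lower past the thresholds below. The summed level of 15 medial habenula markers was 42.6 to 82.5 CPM in Phf21bΔ4/Δ4 mice and 338 to 378 CPM in Phf21b+/+ mice. Of these markers, 13 were lower past the thresholds below, where 0.663% of all genes were. The list was chosen with earlier results of these data known, and the study reported many of its genes as changed in the same libraries. The count is therefore a description. The choroid plexus list of 8 genes summed to 15715 CPM in Phf21b+/+ replicate 7 and 981 CPM in Phf21b+/+ replicate 8, against no more than 83.2 CPM in each of the other 4 mice.

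Levels of different genes were compared per kilobase of exon. In Phf21b+/+ hippocampi *Penk* stood at 13.3 ± 1.07 CPM per kilobase (SD, n = 3) and *Oprl1* at 13.3 ± 0.474. These highest 2 genes could not be ordered, since the range of *Oprl1* over the mice lay inside that of *Penk*. *Pdyn* followed at 5.54 ± 0.240 CPM per kilobase, above both *Pnoc* at 2.86 ± 0.379 and *Oprd1* at 2.24 ± 0.391. The ranges of *Pnoc* (2.56 to 3.29) and *Oprd1* (1.92 to 2.68) overlapped, so they were not separated beyond their spread. *Oprm1* at 0.621 ± 0.0817 and *Oprk1* at 0.166 ± 0.0825 were the lowest, and their ranges did not meet. The nociceptin receptor was thus the most abundant opioid receptor transcript per kilobase in every mouse. In Phf21bΔ4/Δ4 hippocampi the means were 16.9 ± 4.05 for *Oprl1*, 9.85 ± 5.21 for *Penk*, 4.71 ± 1.46 for *Oprd1*, 3.16 ± 0.485 for *Pnoc*, 2.60 ± 2.07 for *Pdyn*, 0.582 ± 0.397 for *Oprm1*, and 0.239 ± 0.156 for *Oprk1*. The order of *Oprd1*, *Pnoc*, and *Pdyn* was not settled there, since *Oprd1* (3.36 to 6.27) overlapped both *Pnoc* (2.74 to 3.69) and *Pdyn* (1.26 to 4.99), and in replicate 6 *Pdyn* stood above *Oprd1*. The ranges of *Oprl1* (12.3 to 19.3) and *Penk* (6.70 to 15.9) overlapped too, and in replicate 6 *Penk* stood above *Oprl1*. So did those of *Oprm1* (0.189 to 0.984) and *Oprk1* (0.0665 to 0.370). The level of *Oprm1* depended on the length used, because its 31 annotated transcripts together span 8037 exon bases and the longest one 2420, and with the latter it was 2.06 CPM per kilobase in Phf21b+/+ mice.

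**Figure D1:**
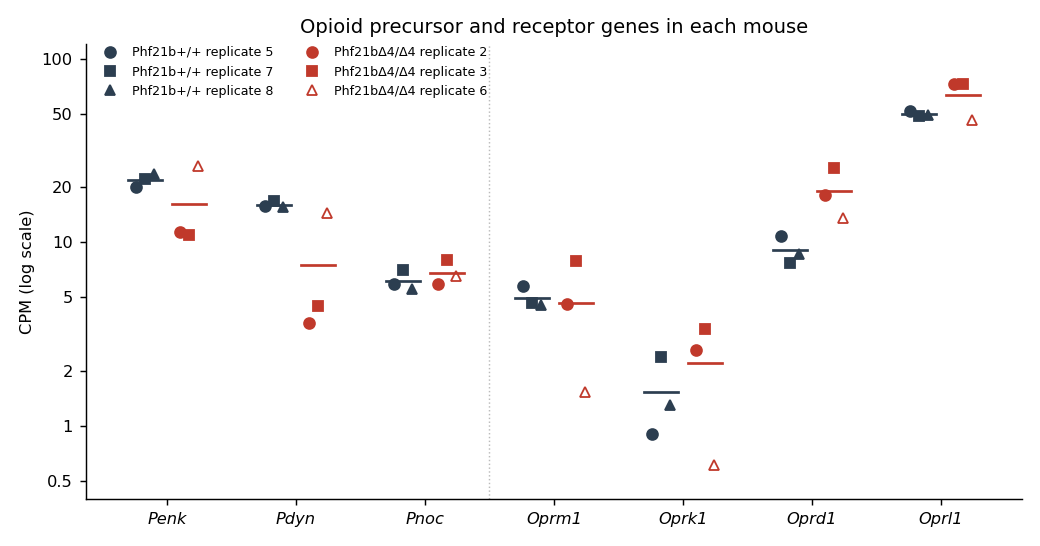
CPM of the 7 opioid genes (log axis) in each Phf21b+/+ mouse (dark) and each Phf21bΔ4/Δ4 mouse (red, replicate 6 as an open triangle), with horizontal bars for the means of 3 mice and a dotted line between precursor and receptor genes. The genotypes do not overlap for *Pdyn* and *Oprd1*. Phf21bΔ4/Δ4 replicate 6 lies away from replicates 2 and 3 for every gene but *Pnoc* and *Oprd1*.

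The genotypes were compared to ask whether depletion of PHF21B went with a different expression of these genes. None of the 7 opioid genes reached an FDR below 0.1 together with a more than 1.3-fold difference, the thresholds used here, by limma's moderated test with Benjamini-Hochberg adjustment over all 14477 genes. Of all genes tested, 1.22% passed, 0.553% higher and 0.663% lower in Phf21bΔ4/Δ4 mice. *Pdyn* and *Oprd1*, 2 of the 7 genes, had an unadjusted p below 0.05, as did 23.6% of all genes, and voom called 0 of the 7 as well. The same 2 genes were those in which the genotypes did not overlap (28.6%), where this held for 31.0% of all genes. The median log2 fold change was 0.14 over the 7 genes and -0.02 over all genes. By counts the opioid genes therefore lay near the background, and the description that follows is of the single genes and mice. Over the 6 mice, *Pdyn* was the gene with the largest measured difference and *Oprd1* the one with the smallest p.

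*Pdyn* was measured at 3.63, 4.48, and 14.4 CPM in Phf21bΔ4/Δ4 replicates 2, 3, and 6 and at 15.7, 16.8, and 15.5 CPM in Phf21b+/+ replicates 5, 7, and 8. All 3 Phf21bΔ4/Δ4 mice lay below the 3 Phf21b+/+ mice, but replicate 6 was just beneath them while replicates 2 and 3 were far lower. The log2 fold change was -1.38 (standard error 0.49, 95% confidence interval -2.54 to -0.22, FDR 0.17 by limma's moderated test). The exact permutation test, 2-sided, gave p = 0.1, the smallest that 3 against 3 mice allow. The means were 7.50 ± 5.99 CPM and 16.0 ± 0.694 CPM (SD, n = 3 each), so the spread among Phf21bΔ4/Δ4 mice was most of the difference between the means. Without Phf21bΔ4/Δ4 replicate 6 the log2 fold change of the dynorphin precursor was -1.99 (FDR 0.0046, limma), past both thresholds.

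*Penk*, the enkephalin precursor, showed the same division of the Phf21bΔ4/Δ4 mice. It was measured at 11.4, 11.0, and 25.9 CPM in Phf21bΔ4/Δ4 replicates 2, 3, and 6 and at 19.9, 22.0, and 23.4 CPM in Phf21b+/+ replicates 5, 7, and 8. Replicates 2 and 3 lay below every Phf21b+/+ mouse and replicate 6 lay above every one, so the genotypes overlapped. The log2 fold change was -0.55 (standard error 0.33, 95% confidence interval -1.33 to 0.22, FDR 0.32 by limma). Without Phf21bΔ4/Δ4 replicate 6 it was -0.96 (FDR 0.014, limma), past both thresholds.

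*Pnoc*, the nociceptin precursor, was measured at 5.90, 7.95, and 6.57 CPM in Phf21bΔ4/Δ4 replicates 2, 3, and 6 and at 5.88, 7.09, and 5.53 CPM in Phf21b+/+ replicates 5, 7, and 8. The mice of both genotypes were intermingled, and *Pnoc* was the only one of the 7 genes in which replicate 6 lay within the range of the Phf21b+/+ mice. How often replicate 6 lay within that range over all genes was not counted. *Pnoc* differed by 0.14 on the log2 scale (95% confidence interval -0.27 to 0.55, FDR 0.62 by limma).

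Markers of dentate granule cells, in which prodynorphin is known to be made, were lower in sum in the Phf21bΔ4/Δ4 mice, and least so in replicate 6. Of the 8 markers listed, *Glis3* was lower past the thresholds (FDR 0.089, limma), where 0.663% of all genes were, 7 had an unadjusted p under 0.05, where 23.6% of all genes had, and none was at 0. *Sema5b*, the other marker on the list, had a log2 fold change of -0.23 (FDR 0.63, limma) and overlapped between the genotypes. Their summed level was 176, 172, and 468 CPM in Phf21bΔ4/Δ4 replicates 2, 3, and 6 and 635, 551, and 557 CPM in Phf21b+/+ replicates 5, 7, and 8. Set against this sum, *Pdyn* stood at 2.06, 2.61, and 3.08 reads per 100 marker reads in the Phf21bΔ4/Δ4 mice and at 2.47, 3.05, and 2.79 in the Phf21b+/+ mice, and the genotypes overlapped. *Penk* stood at 6.49, 6.39, and 5.54 reads per 100 marker reads in Phf21bΔ4/Δ4 replicates 2, 3, and 6 and at 3.14, 3.99, and 4.21 in Phf21b+/+ replicates 5, 7, and 8. Against the markers *Penk* was therefore higher in every Phf21bΔ4/Δ4 mouse than in any Phf21b+/+ mouse, the opposite direction to its log2 fold change. The marker sum was itself lower in every Phf21bΔ4/Δ4 mouse, so this division raises any gene that fell less than the sum. How many of all genes this holds for was not counted, so the ratio does not set *Penk* apart. The part of the granule cell markers in the values of *Pdyn* and *Penk* was not tested, and in bulk tissue fewer cells of a type cannot be told apart from less RNA per cell. *Prox1*, the granule cell transcription factor on this list, is also made by some interneurons. The striatum list, of a region rich in enkephalin and dynorphin, had 0 of 10 genes past the thresholds. An unadjusted p under 0.05 was found for 3 of the 10, all lower in Phf21bΔ4/Δ4 mice, where 23.6% of all genes had one. The genotypes did not overlap in 2 of the 10 (20%), both lower, against 31.0% of all genes. The summed level of this list overlapped between the genotypes, at 57.8 to 95 CPM in Phf21bΔ4/Δ4 mice and 82.0 to 150 CPM in Phf21b+/+ mice. The part of striatal RNA in the values of *Pdyn* and *Penk* was not tested.

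**Figure D2:**
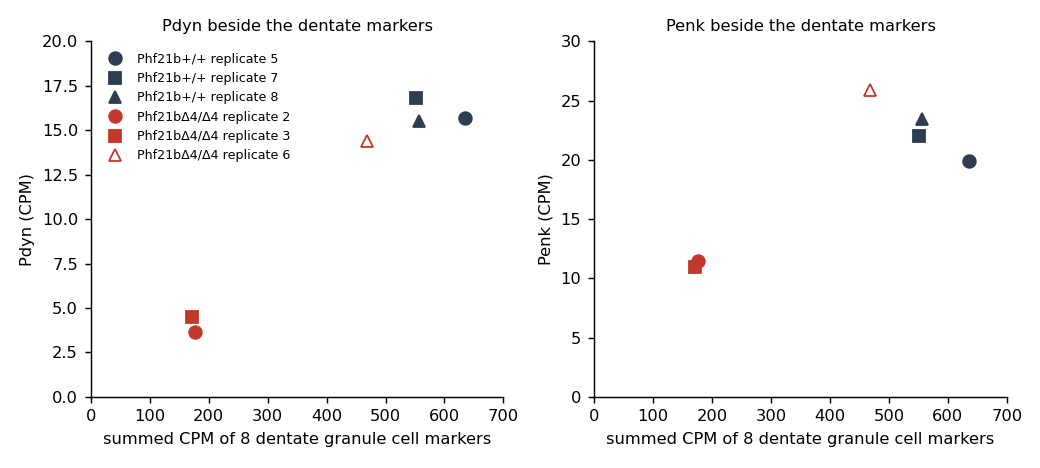
CPM of *Pdyn* (left) and *Penk* (right) in each mouse against the summed CPM of 8 dentate granule cell markers in the same mouse. Phf21bΔ4/Δ4 replicates 2 and 3 lie at the lower left in both plots (marker sums of 176 and 172 CPM), and replicate 6 (468 CPM) lies near the Phf21b+/+ mice.

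Among the receptors, *Oprd1* (δ receptor) was measured at 18.1, 25.2, and 13.5 CPM in Phf21bΔ4/Δ4 replicates 2, 3, and 6 and at 10.8, 7.72, and 8.58 CPM in Phf21b+/+ replicates 5, 7, and 8. Every Phf21bΔ4/Δ4 mouse lay above every Phf21b+/+ mouse, with replicate 6 the nearest to them (exact permutation test, 2-sided, p = 0.1). The means were 18.9 ± 5.88 CPM and 9.03 ± 1.57 CPM (SD, n = 3 each). The log2 fold change was 1.04 (standard error 0.24, 95% confidence interval 0.45 to 1.62, FDR 0.13 by limma's moderated test), which corresponds to 2.05-fold and missed the FDR threshold. Leaving out any 1 mouse gave values from 0.81 to 1.26. Without Phf21bΔ4/Δ4 replicate 6 the FDR was 0.026 (limma).

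*Oprl1* (nociceptin receptor) was measured at 72.2, 72.5, and 46.0 CPM in Phf21bΔ4/Δ4 replicates 2, 3, and 6 and at 51.9, 48.5, and 49.3 CPM in Phf21b+/+ replicates 5, 7, and 8. Replicates 2 and 3 stood above all Phf21b+/+ mice and replicate 6 below all of them. The log2 fold change was 0.32 (95% confidence interval -0.11 to 0.75, FDR 0.31 by limma), and without replicate 6 it was 0.54 (FDR 0.017, limma).

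*Oprm1* (μ receptor) was measured at 4.60, 7.91, and 1.52 CPM in Phf21bΔ4/Δ4 replicates 2, 3, and 6 and at 5.74, 4.68, and 4.54 CPM in Phf21b+/+ replicates 5, 7, and 8. Replicate 3 had the highest and replicate 6 the lowest value of all mice, a 5.19-fold range within Phf21bΔ4/Δ4 against 1.26-fold within Phf21b+/+. On the log2 scale *Oprm1* differed by -0.38 (95% confidence interval -1.72 to 0.96, FDR 0.69 by limma), and without replicate 6 it turned to 0.28 (FDR 0.49, limma). The medial habenula is known for dense μ receptor expression. Its marker *Gpr151* was at 1.81, 0.905, and 1.35 CPM in Phf21bΔ4/Δ4 replicates 2, 3, and 6 and at 43.2 to 51.7 CPM in Phf21b+/+ mice. The part of habenular RNA in the values of *Oprm1* was not tested.

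*Oprk1* (κ receptor) was measured at 2.57, 3.38, and 0.609 CPM in Phf21bΔ4/Δ4 replicates 2, 3, and 6 and at 0.902, 2.36, and 1.3 CPM in Phf21b+/+ replicates 5, 7, and 8. The values rested on as few as 14 reads, and the order of the mice was that of *Oprm1* within Phf21bΔ4/Δ4 but not within Phf21b+/+. The log2 fold change was 0.31 (95% confidence interval -1.36 to 1.98, FDR 0.80 by limma). Its direction was not fixed, since it was -0.17 without Phf21bΔ4/Δ4 replicate 3 and -0.01 without Phf21b+/+ replicate 5.

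**Figure D3:**
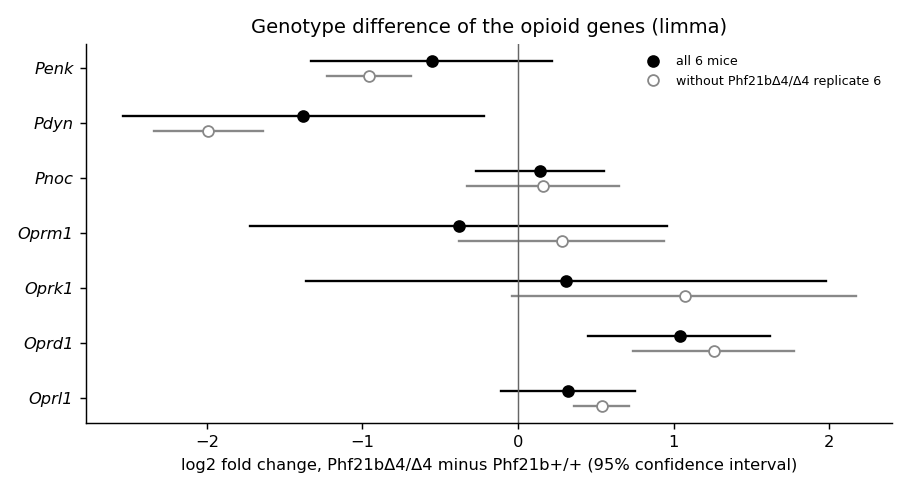
Log2 fold change of each opioid gene, Phf21bΔ4/Δ4 minus Phf21b+/+, with its 95% confidence interval by limma, for all 6 mice (filled) and without Phf21bΔ4/Δ4 replicate 6 (open). With all mice the intervals of *Pdyn* and *Oprd1* exclude 0 before adjustment, and without replicate 6 those of *Penk* and *Oprl1* do too.

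The position of Phf21bΔ4/Δ4 replicate 6 thus decided how many of these genes were called. Without it, 4 of the 7 genes passed the thresholds, *Penk* and *Pdyn* lower and *Oprd1* and *Oprl1* higher in Phf21bΔ4/Δ4 mice, while 19.5% of all genes passed, 9.29% lower and 10.3% higher. With the mice weighted by how well each followed its group (limma's arrayWeights) the same 4 genes passed in the same directions, while 24.5% of all genes did, 14.3% lower and 10.2% higher. That weighting put most on Phf21b+/+ replicate 8 (4.63) and Phf21bΔ4/Δ4 replicate 2 (2.04), and least on Phf21bΔ4/Δ4 replicate 6 (0.343). In the 5 fits that each left out another mouse, 0 of the 7 passed. In all 7 genes the SD of log2 CPM was larger among Phf21bΔ4/Δ4 mice than among Phf21b+/+ mice, which was the case for 62.7% of all genes. The ratio of replicate 6 to the mean of replicates 2 and 3 was 3.55 for *Pdyn* and 2.32 for *Penk*, and it was 0.636 for *Oprl1*, 0.625 for *Oprd1*, 0.244 for *Oprm1*, and 0.205 for *Oprk1*. In replicate 6 the precursor genes *Pdyn* and *Penk* were thus higher, and all 4 receptor genes lower, than in the other Phf21bΔ4/Δ4 mice. Depth did not set it apart, with 23362429 reads on listed genes. The summed level of 15 GABAergic interneuron markers was 1890 and 1789 CPM in Phf21bΔ4/Δ4 replicates 2 and 3, 1458 CPM in replicate 6, and 952 to 1103 CPM in Phf21b+/+ mice. Of these markers, *Gad2* and *Cnr1* were past the thresholds and higher in Phf21bΔ4/Δ4 mice, as were 0.553% of all genes. None of the 15 was at 0, and the part of these markers in the receptor values was not tested.

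The make-up of the family was compared as shares of summed CPM per kilobase. *Pdyn* made up 11.4%, 13%, and 20.9% of the 3 precursors in Phf21bΔ4/Δ4 replicates 2, 3, and 6 and 24.1% to 26.7% in Phf21b+/+ mice. *Penk* held the largest share in every mouse, from 56.1% to 66.4%, with the genotypes overlapping. *Oprl1* made up 71.7% to 78.2% of the 4 receptors in Phf21bΔ4/Δ4 mice and 79.8% to 82.4% in Phf21b+/+ mice. *Oprd1* made up 18.3%, 23.3%, and 21.2% in Phf21bΔ4/Δ4 replicates 2, 3, and 6 and 12.2% to 15.5% in Phf21b+/+ mice. The shares of *Pdyn*, *Oprd1*, and *Oprl1* did not overlap between the genotypes. Levels of single genes did not overlap for 31.0% of all genes, but this is no background for shares of a sum, and none was computed. Shares of 1 sum depend on each other, and the level of *Oprl1* itself overlapped. Replicate 6 lay between the other Phf21bΔ4/Δ4 mice for the shares of *Oprd1* and *Oprl1*. It had the lowest share of all mice for *Oprm1* (1.19%) and *Oprk1* (0.419%).

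**Figure D4:**
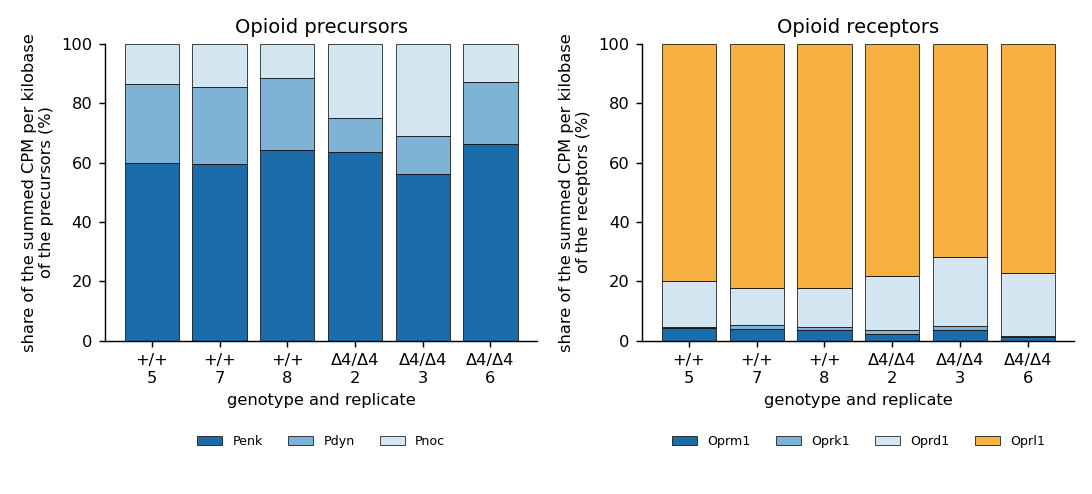
Stacked bars of each gene's share (%) of the summed CPM per kilobase of the 3 precursors (left) and of the 4 receptors (right) in each mouse. *Pdyn* takes 24.1% to 26.7% of the precursors in Phf21b+/+ mice and 11.4% to 20.9% in Phf21bΔ4/Δ4 mice, and *Oprd1* takes 12.2% to 15.5% and 18.3% to 23.3% of the receptors.

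Other genes of opioid signaling were taken from lists that held 46 genes, of which 44 were listed (all but *Anpep* and *Ece2*). None of the 44 passed the thresholds by limma, where 1.22% of all genes did, and voom also called 0 of them. An unadjusted p under 0.05 was found for 12 of them, 9 higher and 3 lower in Phf21bΔ4/Δ4 mice, against 23.6% of all genes. The genotypes did not overlap in 13 (29.5%), against 31.0% of all genes, and the median log2 fold change was 0.16. With Phf21bΔ4/Δ4 replicate 6 left out, 15 of the 44 passed, where 19.5% of all genes did.

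The other precursor and receptor genes were *Pomc*, which encodes the precursor of β-endorphin, *Ogfr*, the opioid growth factor receptor, and its relative *Ogfrl1*. *Pomc* was near the limit of the table, at 0.739 to 1.31 CPM in Phf21bΔ4/Δ4 mice and 0.549 to 1.21 CPM in Phf21b+/+ mice. *Ogfrl1* and *Ogfr* had log2 fold changes of 0.11 (FDR 0.58, limma) and -0.06 (FDR 0.65, limma).

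Of the 7 genes that process prohormones, 0 passed, with a median log2 fold change of -0.05. *Scg5*, the chaperone of the convertase encoded by *Pcsk2*, was measured at 186, 178, and 176 CPM in Phf21bΔ4/Δ4 replicates 2, 3, and 6 and at 155, 154, and 150 CPM in Phf21b+/+ replicates 5, 7, and 8. The genotypes did not overlap, and the log2 fold change was 0.24 (FDR 0.14, limma). *Ctsl*, a protease that can cut proenkephalin, differed by -0.36 on the log2 scale (FDR 0.22, limma). The log2 fold changes of the convertases *Pcsk1* and *Pcsk2* were 0.27 and -0.05.

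Of the 6 listed genes for peptidases that break down opioid peptides, 0 passed, with a median of 0.15. *Lnpep*, an aminopeptidase, and *Ece1*, an endothelin-converting enzyme, had log2 fold changes of 0.28 (FDR 0.19, limma) and 0.39 (FDR 0.23, limma). *Ace*, which also cleaves enkephalin and is made by choroid plexus, was at 245 CPM in Phf21b+/+ replicate 7 and between 5.44 and 23.7 CPM in the other 5 mice. That library also had the highest choroid plexus sum, and the part of choroid plexus in this value was not tested.

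The G proteins and effectors held 14 genes, and 8 of them had an unadjusted p under 0.05, 6 higher and 2 lower in Phf21bΔ4/Δ4 mice, where 23.6% of all genes had. The median log2 fold change was 0.28, and 0 of the 14 passed the thresholds. *Gnaz*, an inhibitory G protein α subunit, was measured at 120, 133, and 106 CPM in Phf21bΔ4/Δ4 replicates 2, 3, and 6 and at 97.5, 82.5, and 90.4 CPM in Phf21b+/+ replicates 5, 7, and 8. The genotypes did not overlap, and the log2 fold change was 0.41 (FDR 0.14, limma). *Adcy5*, an adenylyl cyclase that these G proteins inhibit, was at 196, 200, and 128 CPM in the Phf21bΔ4/Δ4 mice and at 104, 111, and 114 CPM in the Phf21b+/+ mice, 0.65 apart on the log2 scale (FDR 0.14, limma). For *Adcy5* too all Phf21bΔ4/Δ4 mice lay above the Phf21b+/+ mice, and replicate 6 was the nearest to them.

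Of the 14 regulators of receptor signaling, 12 had a log2 fold change above 0, as did 47.6% of all genes, and 0 passed, with a median of 0.17. *Gpr139*, an orphan receptor known to oppose μ receptor signaling, was measured at 1.98, 2.91, and 0.565 CPM in Phf21bΔ4/Δ4 replicates 2, 3, and 6 and at 7.83, 8.19, and 6.29 CPM in Phf21b+/+ replicates 5, 7, and 8. The genotypes did not overlap, with a log2 fold change of -2.31, its standard error being 0.57 and its FDR by limma 0.13. *Gpr139* is known from the medial habenula, whose 15 markers all had negative log2 fold changes, with *Pou4f1*, *Chat*, *Slc18a3*, and *Irx2* at 0 to 2 reads in each Phf21bΔ4/Δ4 mouse. Their part in the level of *Gpr139* was not tested. *Rgs4*, which shortens G protein signals, differed by 0.56 on the log2 scale (FDR 0.17, limma).

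**Figure D5:**
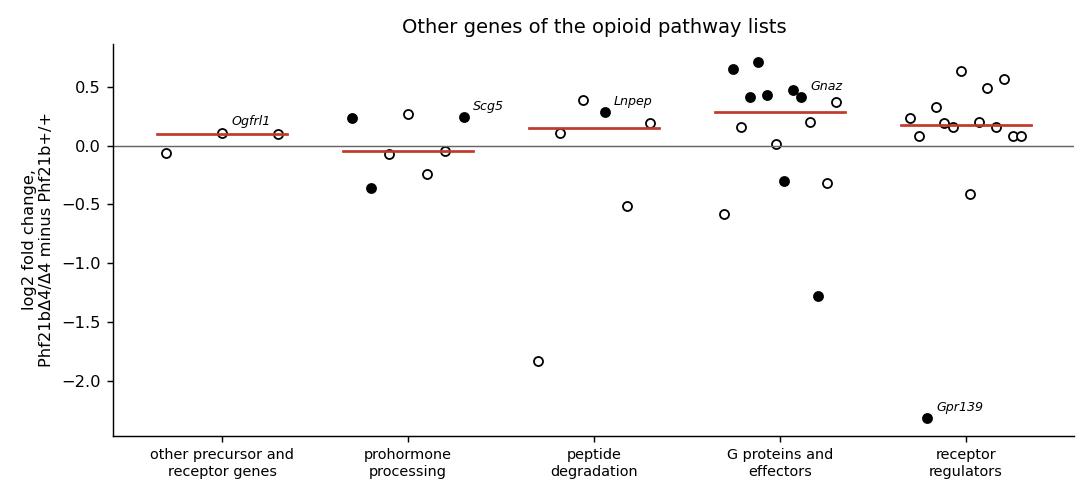
Log2 fold change, Phf21bΔ4/Δ4 minus Phf21b+/+, of 44 other genes of the opioid pathway in 5 lists (points, in alphabetical order within a list, filled where the genotypes do not overlap), with the median of each list as a red bar and the gene with the smallest p named. None passed the thresholds, and *Gpr139* at -2.31 was the lowest.

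The genes whose log2 CPM followed an opioid gene most closely over the 6 mice were sought among the others whose log2 CPM averaged 1 or more, which were 12966 for *Oprk1*, itself below this level, and 12965 for the rest. For *Pdyn* they were *Pla2g2f*, *Fbxo32*, and *Dnajc15* (Pearson's r 0.999, 0.997, and 0.997), and for *Penk* they were *Angel2*, *Kdm4c*, and *Snhg6* (0.999, 0.996, and 0.995). For *Oprd1* they were *Lrrc59*, *Ppip5k1*, and *5730405O15Rik* (0.998, 0.998, and 0.997), and for *Oprl1* they were *Rxrg*, *Cadm1*, and *Fxyd6* (0.997, 0.996, and 0.994). For *Oprk1* they were *Erlin1*, *Mest*, and *Insig2* (0.993, 0.992, and 0.990), and for *Pnoc* *Xxylt1*, *Sec62*, and *Taf12* (0.979, 0.977, and 0.952). With 6 mice in 2 genotypes and this many genes compared, such values are a description of likeness across these libraries. An r over 0.95 was reached by 464 genes for *Oprd1*, 300 for *Pdyn*, 214 for *Oprl1*, and 186 for *Penk*, but by 24 for *Oprk1*, 23 for *Oprm1*, and 4 for *Pnoc*.

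Because CREB was a subject of the study, promoters of the RefSeq table (GRCm38.p6) were searched on both strands for its palindromic element TGACGTCA and its core TGACG, which is contained in it, in the 250 bases before each start. Entries were present for *Pdyn*, *Oprm1*, *Oprd1*, and *Oprl1*, with 9 starts in all, and not for *Penk*, *Pnoc*, or *Oprk1*. Neither motif was found in these 9 windows, while 1.55% and 17.8% of all 32851 windows held them. The 9 windows came from 4 genes and some of them overlap. Elements farther away or with other bases were not searched for, so this does not show that these genes lack CREB sites.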

How the data were processed

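Hippocampal RNA-Seq (TruSeq Ribo-Zero Gold, single-end reads) from 3 Phf21bΔ4/Δ4 and 3 Phf21b+/+ mice was analysed, each assigned by its label. Per the paper and the submitters' processing notes, the authors trimmed reads with Trimmomatic 0.39, mapped them to GRCm38 (GENCODE) with STAR 2.7.3a, counted genes with featureCounts (Subread 1.6.4), dropped genes that did not reach 1 CPM in 2 samples, and scaled the libraries to their effective size with edgeR. The deposited values are log2 CPM with a prior count that the sources used here do not give. The lowest value, -7.81, stood for 0 reads. After subtracting it, 100.0% of values gave whole reads to within 0.1, and these reads gave depth, CPM, and the voom alternative.

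The deposited log2 values of all 14477 genes were fitted with limma 3.58.1 in R 4.3.3 (lmFit, and eBayes with a prior variance that follows mean expression, no covariate), with Benjamini-Hochberg adjustment over all of them. As in the study, whose own test needs counts, a gene was called below an FDR of 0.1 and beyond a 1.3-fold difference, 2-sided. The labels do not say more of how the mice were sampled, so p-values measure the spread between these 6 mice. Exact permutation tests used all 20 divisions of the mice. Intervals and the 3-read level cover no other error than their own. The fit was tested on simulated data.

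The members and all gene lists were chosen with earlier results of these data known. Named were the 7 genes, *Phf21b*, in each pathway list the 2 genes with the smallest p (none passed), the 3 nearest patterns of each opioid gene (those of *Oprm1* are not reported here), and list markers by level; *Ace*, *Pomc*, *Pcsk1*, *Pcsk2*, *Glis3*, *Sema5b*, *Prox1*, *Gpr151*, *Gad2*, and *Cnr1* were added after their values were seen. Exon lengths come from GENCODE M21, an older release than the study's on the same build. Alternatives were another prior variance, robust fitting, arrayWeights, a filter at a mean log2 CPM of 1, pseudocounts of 1 and 0.1, quantile normalization, centring on the median, correction for GC content (98.8% of genes had a value), voom, an FDR under 0.05, no fold threshold, and leaving out each mouse. Promoter sequence for 3 of the 7 genes and protein sequences were not used here. Figures were made with Python 3.11.15 and matplotlib 3.10.9.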

Additional observations from a re-analysis of the deposited data

How the results depend on the processing

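Of the 18 settings tried beside the reported fit, 16 gave 0 of the 7 opioid genes past the thresholds. An FDR under 0.05 and no fold threshold could give no other count, since no opioid gene had an FDR below 0.1 in that fit. Weighting the mice by arrayWeights gave 4, with log2 fold changes of -0.86 for *Penk* (FDR 0.023), -1.82 for *Pdyn* (FDR 0.013), 1.08 for *Oprd1* (FDR 0.012), and 0.47 for *Oprl1* (FDR 0.025) by limma. The weights were 2.04, 0.554, and 0.343 for Phf21bΔ4/Δ4 replicates 2, 3, and 6. They were 1.01, 0.553, and 4.63 for Phf21b+/+ replicates 5, 7, and 8, so this fit rested mostly on 1 mouse of each genotype. Under this weighting 16 pathway genes and 3549 of all genes (24.5%) passed. The 12 settings that kept all mice changed no direction. For another prior variance, robust fitting, the filter, and the changed thresholds this was fixed in advance, since they leave the log2 fold changes as they were. Over the 6 fits that left out 1 mouse, the log2 fold change ran from -0.96 to -0.34 for *Penk*, -1.99 to -0.99 for *Pdyn*, 0.02 to 0.24 for *Pnoc*, -0.91 to 0.28 for *Oprm1*, -0.17 to 1.07 for *Oprk1*, 0.81 to 1.26 for *Oprd1*, and 0.21 to 0.54 for *Oprl1*. *Oprm1* changed sign without Phf21bΔ4/Δ4 replicate 6, and *Oprk1* without Phf21bΔ4/Δ4 replicate 3 or Phf21b+/+ replicate 5. The number called ran from 0 to 4 for the opioid genes, 0 to 15 for the pathway genes, and 9 to 2830 for all genes, against 176 in the reported fit, and the highest values came without Phf21bΔ4/Δ4 replicate 6. All genes called were 75 with the same prior variance for all genes, 101 with the filter at a mean log2 CPM of 1 (*Oprk1* was not tested there), and 25 at an FDR under 0.05. With the length of the longest transcript, levels per kilobase in Phf21b+/+ mice were 15 for *Penk*, 6.71 for *Pdyn*, 2.06 for *Oprm1*, 0.326 for *Oprk1*, and 16.1 for *Oprl1*, and in Phf21bΔ4/Δ4 mice 1.93 for *Oprm1* and 0.468 for *Oprk1*. The cause of these differences between settings was not tested. No paired analysis was made because the labels name no litter or other link between mice of the 2 genotypes. Depth limits *Oprk1* most, at 14 to 71 reads per mouse.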
